A study of Mus musculus with 18 samples.

Results

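The 9 genes described here encode the proteins that mark replication origins and license them: the 6 subunits of the origin recognition complex, ORC (Orc1, Orc2, Orc3, Orc4, Orc5 and Orc6), the loaders Cdc6 and Cdt1, and Gmnn, which encodes the inhibitor geminin. They were chosen by name, by matching the identifiers of the gene table to these symbols. The rule uses no measured value, but earlier results of these data were known when it was set. They are 9 of the 51912 genes in the table, and all 9 were among the 15710 genes with enough reads to be tested.

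ORC binds DNA at origins and recruits CDC6, and together with CDT1 they load the MCM2-7 helicase as an inactive double ring. Loading is confined to late mitosis and G1. Once S phase has begun, CDT1 is destroyed or held by geminin, CDC6 and ORC1 are removed or modified, and no origin can be licensed again until the next division. ORC2 to ORC5 form a stable core, ORC1 joins it late and is the most strongly regulated subunit, and ORC6 is the most loosely bound. The genes for ORC1, CDC6, CDT1 and geminin are known E2F targets in dividing fibroblasts.

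Transcripts were measured by RNA-seq in primary mouse embryonic fibroblasts (MEFs) at passage 1, kept at 5% oxygen in 15% serum. The embryos came from crosses of mice carrying deletions of Pole4, a small subunit of DNA polymerase epsilon, and of Trp53, the gene for the TRP53 tumor suppressor. There were 6 genotypes with 3 libraries each: Pole4+/+ cells with Trp53+/+, Trp53+/- or Trp53-/-, and Pole4-/- cells with the same 3 Trp53 genotypes, which the labels write as wt, het and null. All groups shared the C57BL/6 background and the culture conditions. The labels do not say whether the 3 libraries of a genotype came from separate embryos, and p-values measure the spread between these libraries. Whole cultures were measured, so fewer cycling cells and less RNA per cell cannot be told apart.

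Libraries held 9535971 to 35319918 counts, and ribosomal RNA genes took 0.968% to 42.5% of them. All 3 Pole4-/- Trp53-/- libraries lay between 24.7% and 30.04% ribosomal RNA. Trp53 itself was at 90.8 ± 4.81 CPM (CPM is a library's count for a gene scaled to a common library size, as edgeR's cpm function gives it; mean ± SD, n = 3) in Pole4+/+ Trp53+/+ cells, 10.8 ± 1.83 in Pole4+/+ Trp53-/- and 11.4 ± 1.15 in Pole4-/- Trp53-/- cells. Trp53 was at 69.1 ± 4.40 CPM in Pole4-/- Trp53+/+ cells, with every library below those of Pole4+/+ Trp53+/+ cells. In Pole4+/+ Trp53+/- and Pole4-/- Trp53+/- cells it was at 58.1 ± 1.70 and 52.4 ± 3.67 CPM. Pole4 was at 16.3 to 22.9 CPM in the Pole4+/+ Trp53+/+ and 9.26 to 11.2 CPM in the Pole4-/- Trp53+/+ libraries, and a count per gene cannot separate the deleted part from the rest. The fibroblast markers Col1a1, Col1a2, Col3a1, Pdgfra, Pdgfrb, Thy1, Vim, Fn1, Dcn and Lum were found in every genotype, with a summed level of 13720 to 30960 CPM. By Xist and Y-linked genes 7 of the 18 libraries were male: none of the Pole4+/+ Trp53+/+ and Pole4+/+ Trp53-/- libraries, all 3 Pole4+/+ Trp53+/- libraries, and 1 or 2 of each Pole4-/- genotype.

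One library stood apart from its group. The Pole4 level of Pole4+/+ Trp53-/- library 1 was 14.2 CPM against 25.4 and 26.4 in the other two, and its 4 Y-linked genes summed to 7.20 CPM although it carried 857 CPM of Xist. The other female libraries held at most 0.302 CPM of these Y-linked genes. Tests that use this library are given with and without it.

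Stretches of promoter are shown first, because 6 of the 9 genes varied together across genotypes and Orc1, Cdc6, Cdt1 and Gmnn among them are known E2F targets. RefSeq's promoter table (GRCm38.p6) held 11 start sites for 8 of the 9 genes. Gmnn had no entry. The 250 bases before each start were searched on both strands for E2F letters, which were taken as TTCCCGC or any of the 3 variants that are written as TTCGCGC in one case, as TTGCCGC in another and as TTGGCGC in the last. They were found for Orc1, Orc3, Orc4 and Cdc6, at 4 of the 11 start sites, and in 7.89% of all 32851 promoters of the same length. The 30 bases around each match are given 5′ to 3′ on the gene's own strand, with the E2F letters in capitals.
Orc1: tttcggttagtgGCGCGAAaagttttctcc
Cdc6: ggccggtggagaGCGGGAAatcgcctgggg
Orc3: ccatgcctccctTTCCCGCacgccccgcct
Orc4: agccgggcggggGCGGGAAgagggaggaag
The Orc1 stretch lies at chr4:108579415-108579444 on the plus strand, 27 bases before the RefSeq start at the first capital, and 22 of its bases are in an Orc1 exon of GENCODE's annotation, which begins further upstream. The Cdc6 stretch is at chr11:98908001-98908030 on the plus strand, with the match 138 bases before the start, in an intron of the longer GENCODE gene. The Orc3 stretch is at chr4:34614965-34614994 on the minus strand, with the match 40 bases before the start, inside an exon of the opposite gene Rars2. The Orc4 stretch is at chr2:48949390-48949419 on the minus strand, 140 bases before 1 of its 3 listed starts, in an Orc4 intron. The letters CCAAT were found at 4 of the 11 start sites (1 each of Orc1, Orc2, Orc4 and Orc6), or 36.4%, close to the 33.8% of all promoters. TTTGAA and TTCGAA, letters of the cell cycle homology region of late cell cycle genes, were found at 0 of the 11 against 17.1%. Orc3 carried the E2F letters and its level hardly varied, whereas Cdt1, Orc2 and Orc6 did not carry them in this window and varied widely. A match is a run of letters and not a measured binding site.

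The 9 genes fell into a variable and a flat group. The ratio of the highest to the lowest genotype mean was 4.09 for Cdc6, 3.62 for Cdt1, 3.28 for Orc1, 3.19 for Gmnn, 2.48 for Orc6 and 2.43 for Orc2. It was 1.32 for Orc5, 1.24 for Orc4 and 1.13 for Orc3. Thus the ORC subunits did not vary as a unit: 3 varied with the loaders and 3 stayed near a constant level. All 6 variable genes had their lowest mean in Pole4-/- Trp53+/+ cells and their highest in Pole4-/- Trp53-/- cells. The highest place was not firm. Scaling by library totals put all 6 lower there than in Pole4+/+ Trp53-/- cells. Leaving out Pole4+/+ Trp53-/- library 1 did the same for all of them except Orc2. The split into these groups was made after the values were seen and is a description.

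**Figure D1:**
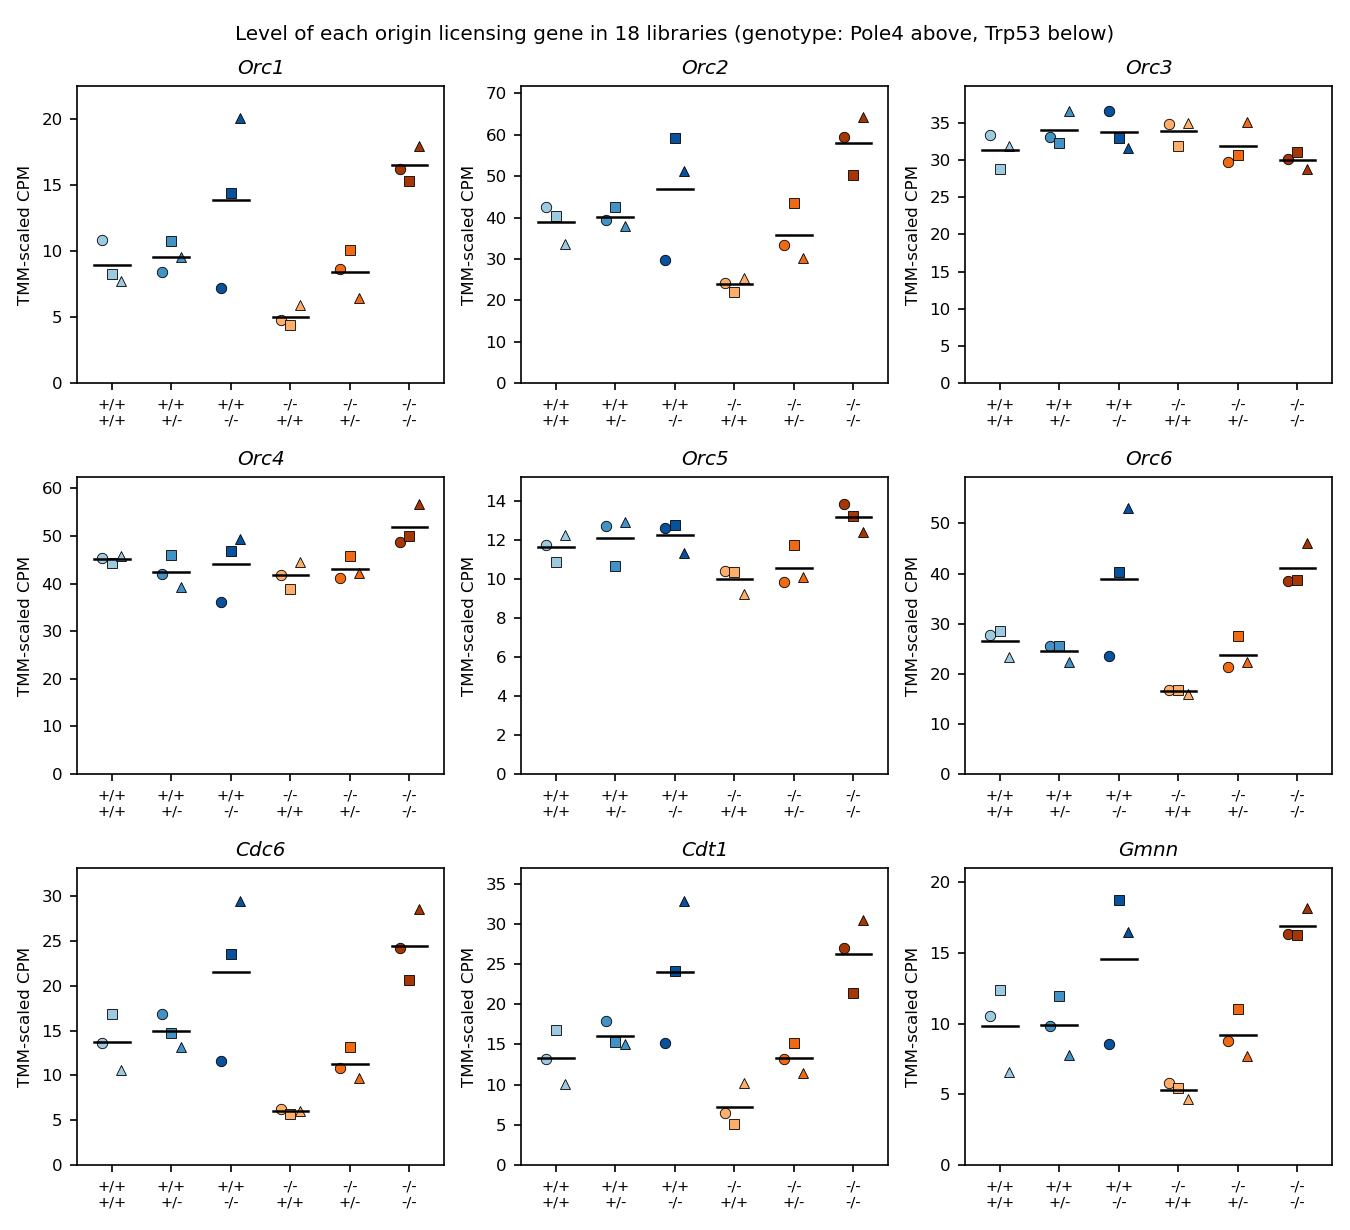
Level of each gene as scaled CPM (vertical axis, from 0) in the 6 genotypes (horizontal axis, Pole4 alleles above, Trp53 alleles below); circles, squares and triangles are libraries 1, 2 and 3 and bars are means of 3. Orc1, Orc2, Orc6, Cdc6, Cdt1 and Gmnn have their lowest mean in Pole4-/- Trp53+/+ and their highest in Pole4-/- Trp53-/- cells. The order of the highest 2 genotypes depends on the scaling and on Pole4+/+ Trp53-/- library 1. Orc3, Orc4 and Orc5 stay within 1.32-fold between genotype means.

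Levels between genes can be compared only per length of exon. In Pole4+/+ Trp53+/+ cells the mean was 10.8 CPM per kb for Orc6 and 10.1 for Orc2, then 6.71 for Gmnn, 6.05 for Orc4, 5.15 for Orc3 and 4.24 for Cdt1. Cdc6 was at 2.62, Orc1 at 2.57 and Orc5 at 1.89 CPM per kb. Orc1 and Orc5 were therefore the ORC transcripts with the lowest level in these cells. In Pole4-/- Trp53+/+ cells Cdc6 (1.14 CPM per kb) and Orc1 (1.45) were the lowest of the 9, below Orc5 at 1.62. In Pole4-/- Trp53-/- cells Orc5 (2.14) was the lowest and Orc1 had reached 4.74 CPM per kb.

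Loss of Trp53 in Pole4-/- cells gave the largest differences. To see how loss of both Trp53 alleles altered licensing genes in the absence of Pole4, Pole4-/- Trp53-/- was compared with Pole4-/- Trp53+/+ cells. Of the 9 genes, 8 rose (edgeR's quasi-likelihood test, Benjamini-Hochberg adjusted p under 0.05 over all genes tested) and 0 fell, where 42.6% of all genes were called in either direction and 21.8% were called higher. The median log2 fold change was 1.31 over the 9 genes and -0.02 over all genes.

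Cdc6, the ATPase that brings ORC and the helicase together, showed the largest change. It was at 6.25, 5.67 and 6.02 CPM in the 3 Pole4-/- Trp53+/+ libraries and at 24.3, 20.6 and 28.6 CPM in the Pole4-/- Trp53-/- libraries. The groups were far apart, and the log2 fold change was 2.03 ± 0.28 (SE; edgeR adjusted p = 5.97e-05). Cdt1, which carries the helicase to ORC and CDC6, went from 6.52, 5.09 and 10.2 CPM to 27.0, 21.4 and 30.4 CPM. Library 3 of the Pole4-/- Trp53+/+ cells was above the other two, and the log2 fold change was 1.89 ± 0.28 (edgeR adjusted p = 0.000137). Gmnn, the inhibitor of CDT1, rose with its target. It was at 5.80, 5.42 and 4.68 CPM before and 16.3, 16.2 and 18.2 CPM after loss of Trp53, a log2 fold change of 1.66 ± 0.28 (edgeR adjusted p = 0.000291).

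Among the ORC genes, Orc1, whose product completes the active complex, was at 4.79, 4.42 and 5.89 CPM in Pole4-/- Trp53+/+ and at 16.2, 15.3 and 17.97 CPM in Pole4-/- Trp53-/- cells (log2 fold change 1.73 ± 0.29, edgeR adjusted p = 0.000276). Orc6, needed for helicase loading but loosely attached in mammals, was at 16.7, 16.9 and 16.1 CPM and then at 38.6, 38.6 and 46.1 CPM (log2 fold change 1.31 ± 0.21, edgeR adjusted p = 0.000199). Orc2, a core subunit, went from 24.1, 22.1 and 25.3 CPM to 59.4, 50.2 and 64.4 CPM (log2 fold change 1.28 ± 0.20, edgeR adjusted p = 0.00018). For these 3 genes the lowest Pole4-/- Trp53-/- library was above the highest Pole4-/- Trp53+/+ library by a wide margin.

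The remaining core subunits moved little. Orc5, an ATPase subunit, was at 10.4, 10.3 and 9.24 CPM against 13.9, 13.2 and 12.4 CPM, a log2 fold change of 0.39 ± 0.11 (edgeR adjusted p = 0.00923). Orc4, also an ATPase subunit, was at 41.7, 38.9 and 44.6 CPM against 48.7, 50.05 and 56.8 CPM, a log2 fold change of 0.31 ± 0.11 (edgeR adjusted p = 0.028). Both rose far less than Orc1, and the call for Orc4 was lost under scaling by library totals, with Xist as a covariate and when Pole4-/- Trp53-/- library 3 or Pole4-/- Trp53+/+ library 1 or 2 was left out; scaling by library totals also ended the call for Orc5. Orc3, which pairs with ORC2 in the core, was the only member whose Pole4-/- Trp53-/- libraries were all lower. It was at 34.8, 32.0 and 35.1 CPM in Pole4-/- Trp53+/+ and 30.1, 31.1 and 28.8 CPM in Pole4-/- Trp53-/- cells. The log2 fold change was -0.18 ± 0.09 (edgeR adjusted p = 0.134) and did not pass the test. The libraries did not overlap for any of the 9 genes, higher for 8 and lower for 1, where 28.5% of all genes lay higher and 28.5% lower without overlap. With 3 libraries a side, 0.1 is the smallest two-sided p that exact permutation allows, and all 9 genes reached it.

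All 8 of these genes were also called with the share of ribosomal RNA as a covariate, against 42% of all genes, and the log2 fold changes of the 6 variable genes then lay between 1.23 and 2.01. The summed fibroblast markers moved the opposite way to the licensing genes, with 24890 to 30960 CPM in Pole4-/- Trp53+/+ and 13720 to 16520 CPM in Pole4-/- Trp53-/- cells. Of these 10 markers none had a mean under 1 CPM. The summed muscle markers Myod1, Myog, Myh3, Acta1 and Des went from 139.9–149 CPM to 52.9–67.4 CPM, and the summed epithelial markers Epcam, Cdh1, Krt8 and Krt18 from 2.02–2.67 CPM to 4.19–20.02 CPM. The summed neuronal markers went from 52.2–60.6 to 63.05–86.8 CPM. None of these 4 lists overlapped between the groups. Their part in the result was not tested. Macrophage, endothelial and erythroid markers were low throughout, at no more than 18.04, 5.57 and 0.266 CPM in sum, and all 4 erythroid markers had a mean under 1 CPM in every genotype.

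**Figure D2:**
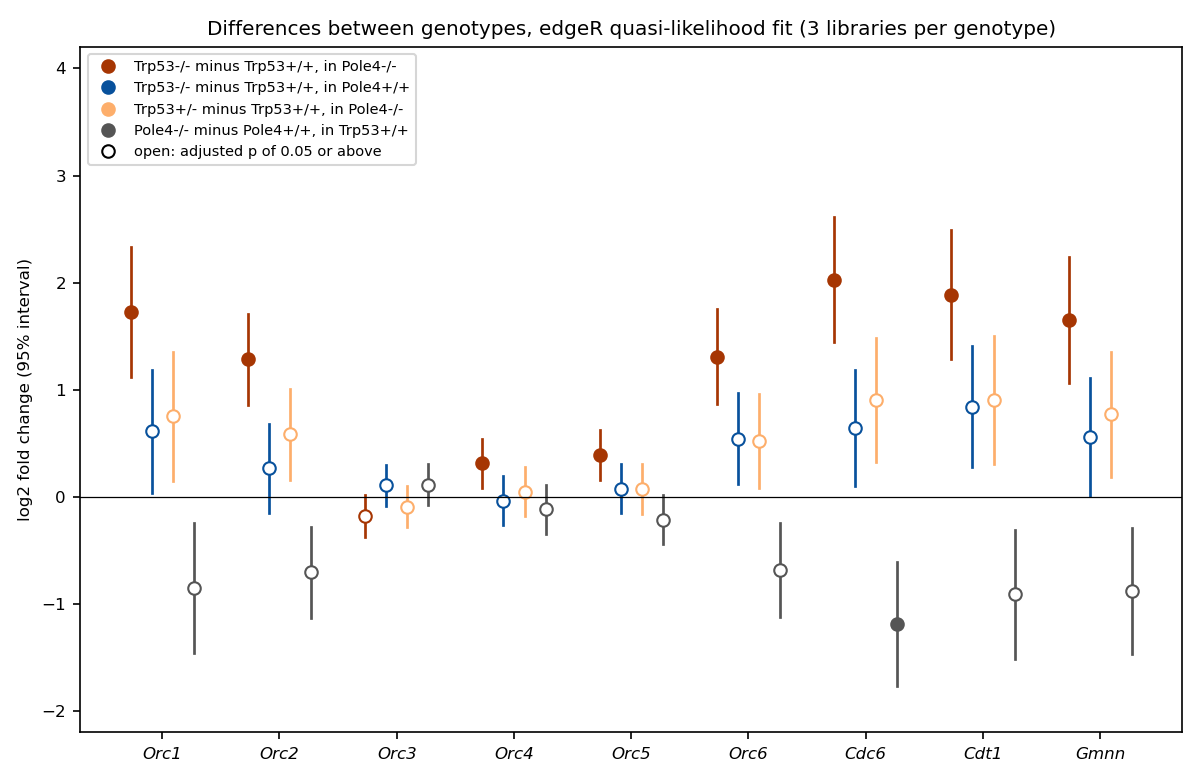
Log2 fold change (vertical axis, 95% interval) of each gene in 4 comparisons of 3 libraries against 3; filled points passed the edgeR test at an adjusted p under 0.05. After loss of Trp53 in Pole4-/- cells 8 of the 9 points are filled, with Cdc6 highest at 2.03, while in Pole4+/+ cells none is filled.

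In Pole4+/+ cells the same loss of Trp53 gave smaller differences. None of the 9 genes was called by edgeR between Pole4+/+ Trp53-/- and Pole4+/+ Trp53+/+ cells, against 4.6% of all genes, and 5 of the 9 had an unadjusted p under 0.05, against 19.0% of all genes. DESeq2 called 1 of them (Cdt1), against 8.35% of all genes, and limma's voom with quality weights 6, against 18.9%. The 9 genes' median log2 fold change was 0.54 and that of all genes 0.03. Cdt1 was at 13.2, 16.8 and 10.03 CPM in Pole4+/+ Trp53+/+ cells and at 15.2, 24.1 and 32.8 CPM in Pole4+/+ Trp53-/- cells (log2 fold change 0.84 ± 0.27, edgeR adjusted p = 0.0846). Cdc6 was at 13.6, 16.9 and 10.6 CPM and then 11.7, 23.5 and 29.5 CPM (log2 fold change 0.64 ± 0.25, edgeR adjusted p = 0.173). For both genes libraries 2 and 3 without Trp53 were above all wild-type libraries, while library 1 was within their range.

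Orc1 showed the same arrangement, with 10.8, 8.27 and 7.71 CPM in Pole4+/+ Trp53+/+ and 7.22, 14.4 and 20.1 CPM in Pole4+/+ Trp53-/- cells. Orc6 was at 27.8, 28.5 and 23.4 CPM against 23.6, 40.3 and 53.0 CPM, Orc2 at 42.6, 40.4 and 33.5 CPM against 29.9, 59.4 and 51.2 CPM, and Gmnn at 10.6, 12.4 and 6.59 CPM against 8.56, 18.7 and 16.5 CPM. In each of these genes library 1 overlapped the wild type or lay under it. Without library 1, which stood apart as described, 16.9% of all genes were called, and 6 of the 9 genes were called higher: Cdt1 with a log2 fold change of 1.06, Cdc6 with 0.92, Orc1 with 0.90, Gmnn with 0.81, Orc6 with 0.78 and Orc2 with 0.48 (edgeR adjusted p between 0.00165 and 0.0287). Library 1 was also the lowest of its 3 for 7 of the 9 genes, so leaving it out is not independent of the levels tested, and these values are a description. Leaving out either of the other two Pole4+/+ Trp53-/- libraries left 0 called, against 2.97% and 4.02% of all genes. Without library 3 the log2 fold changes were lower, at 0.54 for Cdt1, 0.34 for Cdc6, 0.24 for Orc1 and 0.25 for Orc6, and without library 2 they were 0.32 for Gmnn and 0.046 for Orc2. With all libraries Orc1, Orc6, Gmnn and Orc2 were at 0.61, 0.54, 0.56 and 0.26. Orc3, Orc4 and Orc5 had log2 fold changes of 0.11, -0.04 and 0.08, and Orc4 changed sign between settings. In this comparison the summed muscle markers went from 113.6–151.4 to 42.5–50.4 CPM and the neuronal markers from 48.8–57.7 to 65.6–86.5 CPM, both without overlap, and their part was not tested.

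Whether the effect of losing Trp53 differed between Pole4-/- and Pole4+/+ cells was tested as an interaction. None of the 9 genes passed (edgeR adjusted p between 0.0603 and 0.187), against 0.331% of all genes, and 8 of the 9 had an unadjusted p under 0.05, against 28.3% of all genes. DESeq2 called 3 of them, against 11.4% of all genes, and voom 5, against 7.59%. The difference between the 2 log2 fold changes was 1.39 ± 0.37 for Cdc6, 1.12 ± 0.39 for Orc1, 1.10 ± 0.38 for Gmnn, 1.05 ± 0.39 for Cdt1, 1.02 ± 0.28 for Orc2 and 0.77 ± 0.29 for Orc6. It was positive for these 6 genes and negative, at -0.28 ± 0.13, for Orc3. The count depended on single libraries: it was 7 without Pole4+/+ Trp53-/- library 3, against 20.1% of all genes, 3 without library 2 of that genotype, against 12.3%, and 1 without Pole4+/+ Trp53+/+ library 3, against 2.52%. It was 0 without Pole4+/+ Trp53-/- library 1, against 1.07% of all genes.

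Loss of a single Trp53 allele was examined next. In Pole4-/- cells, Trp53+/- libraries were above all Trp53+/+ libraries for 6 of the 9 genes (Orc1, Orc2, Orc6, Cdc6, Cdt1 and Gmnn), where 21.4% of all genes lay higher without overlap. None was called by edgeR, against 5.12% of all genes, and 6 had an unadjusted p under 0.05, against 26.0%. DESeq2 called 4, against 11% of all genes, and voom 6, against 24.6%. Cdc6 was at 10.8, 13.2 and 9.77 CPM in Pole4-/- Trp53+/- cells, above the 5.67 to 6.25 CPM of Pole4-/- Trp53+/+ cells (log2 fold change 0.91 ± 0.27, edgeR adjusted p = 0.0629). Cdt1 was at 13.2, 15.2 and 11.5 CPM (0.90 ± 0.28, edgeR adjusted p = 0.0695). Gmnn was at 8.74, 11.03 and 7.74 CPM, Orc1 at 8.67, 10.1 and 6.47 CPM, Orc2 at 33.5, 43.4 and 30.2 CPM and Orc6 at 21.3, 27.6 and 22.4 CPM, with log2 fold changes of 0.77, 0.75, 0.58 and 0.52. These levels were those of Pole4+/+ Trp53+/+ cells or somewhat lower, and the libraries of the 2 genotypes overlapped for all 6. A fit of only the libraries compared called 6 genes, against 18.2% of all genes, and so did scaling by library totals alone, against 13.8%. The summed epithelial markers went from 2.02–2.67 to 3.90–6.44 CPM without overlap, and their part was not tested.

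Loss of the second allele in Pole4-/- cells raised the same 6 genes by the test. Between Pole4-/- Trp53-/- and Pole4-/- Trp53+/- cells 6 of the 9 rose (edgeR) and 0 fell, against 12.5% of all genes called in either direction and 6.58% called higher, and 8 of the 9 lay higher without overlap, against 19.3%. The log2 fold change was 1.12 ± 0.26 for Cdc6 (edgeR adjusted p = 0.0109), 0.98 ± 0.26 for Cdt1, 0.97 ± 0.27 for Orc1, 0.88 ± 0.26 for Gmnn, 0.79 ± 0.20 for Orc6 and 0.70 ± 0.20 for Orc2. Orc4 and Orc5 lay higher in every Pole4-/- Trp53-/- library with log2 fold changes of 0.27 and 0.32, but did not pass. The step from wild type to heterozygote and that from heterozygote to null share the heterozygous libraries. In this fit they were 0.91 and 1.12 for Cdc6, 0.90 and 0.98 for Cdt1 and 0.52 and 0.79 for Orc6. With library totals they were 1.18 and 0.81 for Cdc6, 1.22 and 0.67 for Cdt1 and 0.80 and 0.47 for Orc6. The difference between the steps was not tested. DESeq2 called 7 of the 9, against 17.6% of all genes, and voom 8, against 25.9%. With the share of ribosomal RNA as a covariate none was called, against 5.48% of all genes, while the log2 fold changes were 1.06 for Cdc6 (edgeR adjusted p = 0.0504), 0.91 for Cdt1, 0.77 for Orc1, 0.71 for Orc6, 0.66 for Gmnn and 0.51 for Orc2. Under scaling by library totals none was called, against 7.97% of all genes, and the log2 fold changes were 0.81 for Cdc6, 0.67 for Cdt1, 0.66 for Orc1, 0.57 for Gmnn, 0.47 for Orc6 and 0.39 for Orc2, while Orc4 and Orc5 changed sign to -0.059 and -0.0058. None was called without Pole4-/- Trp53+/- library 1, Pole4-/- Trp53+/- library 3 or Pole4-/- Trp53-/- library 3, against 5.1%, 4.87% and 4.03% of all genes, and 2 were without Pole4-/- Trp53-/- library 1, against 9.16%. Ribosomal RNA took 24.7% to 30.04% of the Pole4-/- Trp53-/- libraries and 3.75% to 15.5% of the Pole4-/- Trp53+/- libraries. The summed fibroblast markers went from 20560–26020 to 13720–16520 CPM in this comparison and the muscle markers from 124.9–203 to 52.9–67.4 CPM, both without overlap. Their part in the result was not tested.

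In Pole4+/+ cells a single lost allele made little difference. The 9 genes' log2 fold changes ran from -0.12 for Orc6 to 0.27 for Cdt1, all 9 overlapped between Pole4+/+ Trp53+/- and Pole4+/+ Trp53+/+ libraries, and none was called or had an unadjusted p under 0.05 in edgeR, where 0.904% of all genes were called and 10.2% had such a p. DESeq2 and voom called 0 of the 9, against 2.57% and 7.13% of all genes. Cdc6 was at 16.8, 14.8 and 13.2 CPM and Cdt1 at 17.9, 15.3 and 15.0 CPM in Pole4+/+ Trp53+/- cells. The 95% intervals of the 6 variable genes reached at most 0.84 (Cdt1), so a change as large as 2-fold lay outside them. All 3 Pole4+/+ Trp53+/- libraries were male and the wild-type ones female, and with Xist as a covariate none was called either, against 0.331% of all genes. The summed muscle markers were at 58.5–80.5 CPM in Pole4+/+ Trp53+/- cells and the neuronal markers at 62.6–79.5 CPM, both without overlap with Pole4+/+ Trp53+/+ cells, and their part was not tested. Between Pole4+/+ Trp53-/- and Pole4+/+ Trp53+/- cells none was called either (edgeR, smallest adjusted p = 0.255 for Orc6, log2 fold change 0.66 ± 0.20), against 0.579% of all genes. Here 2 genes had an unadjusted p under 0.05, against 9.31% of all genes, DESeq2 called 0, against 1.32%, and voom 5, against 7.29%. Without Pole4+/+ Trp53-/- library 1 the edgeR count was 5, against 9.41% of all genes, and the called genes were Orc1, Orc6, Cdc6, Cdt1 and Gmnn. Orc6 was at 0.898 without that library and at 0.367 without library 3. These Pole4+/+ Trp53-/- libraries were all female and the Pole4+/+ Trp53+/- ones male, and the summed muscle markers were at 42.5–50.4 against 58.5–80.5 CPM, without overlap. Their part was not tested.

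Loss of Pole4 lowered Cdc6 in cells with intact Trp53. Between Pole4-/- Trp53+/+ and Pole4+/+ Trp53+/+ cells it fell from 13.6, 16.9 and 10.6 CPM to 6.25, 5.67 and 6.02 CPM, a log2 fold change of -1.19 ± 0.27 (edgeR adjusted p = 0.0308). It was the only 1 of the 9 genes called in this edgeR fit, against 3.98% of all genes in either direction and 2.7% lower, and 6 of the 9 had an unadjusted p under 0.05, against 26.1%. Cdt1 (-0.91 ± 0.28), Gmnn (-0.88 ± 0.28), Orc1 (-0.85 ± 0.29), Orc2 (-0.71 ± 0.20) and Orc6 (-0.68 ± 0.21) did not pass, with edgeR adjusted p between 0.0566 and 0.0897. For 6 genes (Orc1, Orc2, Orc5, Orc6, Cdc6 and Gmnn) all 3 Pole4-/- libraries were under all 3 Pole4+/+ libraries, where 21.7% of all genes lay lower without overlap. Cdt1 overlapped through Pole4-/- Trp53+/+ library 3 at 10.2 CPM and Pole4+/+ Trp53+/+ library 3 at 10.03 CPM. Orc3 and Orc4 had log2 fold changes of 0.11 and -0.12.

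The number called was sensitive to the model. More genes were called over the whole table too: DESeq2, scaling by library totals and voom each called 6 of the 9 genes lower, against 10.3%, 14.3% and 33.5% of all genes, and a fit of only these 6 libraries called 5, against 24.1%. The log2 fold change of Cdc6 lay between -1.47 and -1.10 in the alternatives and between -1.34 and -1.02 when single libraries were left out. Its call was lost with Xist as a covariate (-1.10), when 0.0191% of all genes were called, and when any of the 6 libraries other than Pole4+/+ Trp53+/+ library 3 was left out, when 0.0493% to 0.874% were. Without that library 4 genes were called, against 4.93% of all genes. With ribosomal RNA as a covariate 5 were called lower, against 12.2%. The Pole4+/+ Trp53+/+ libraries were all female and 2 of the 3 Pole4-/- Trp53+/+ libraries male. The summed fibroblast markers went from 16330–22000 to 24890–30960 CPM and the epithelial markers from 2.75–6.76 to 2.02–2.67 CPM, both without overlap. Their part in the result was not tested.

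Without Trp53, licensing genes of Pole4-/- and Pole4+/+ cells were not told apart. In Pole4-/- Trp53-/- against Pole4+/+ Trp53-/- cells the log2 fold changes ran from -0.17 (Orc3) to 0.31 (Orc2), and none was called by edgeR (smallest adjusted p = 0.473), DESeq2 or voom. Of all genes edgeR and voom each called 0.00637% and DESeq2 0.185%. Orc4 had an unadjusted p under 0.05, against 10.4% of all genes, and Orc3 was lower without overlap, against 4.83%. The 95% interval was -0.34 to 0.73 for Cdc6 and -0.42 to 0.70 for Cdt1 and includes differences in either direction. Under scaling by library totals alone the median of all genes was -0.44, against -0.02 here, all 9 values were negative and none was called. Of the 9, 8 had changed sign and lay between -0.32 and -0.071. Without Pole4+/+ Trp53-/- library 1 the values for Orc1, Orc6, Cdc6, Cdt1 and Gmnn lay between -0.17 and -0.05, and none was called. Ribosomal RNA took 24.7% to 30.04% of the Pole4-/- Trp53-/- and 1.82% to 13.06% of the Pole4+/+ Trp53-/- libraries. With it as a covariate Orc1, Orc6 and Gmnn changed sign (-0.0066, -0.021 and -0.068) and none was called, against 0.00637% of all genes. With a single Trp53 allele, Cdc6 was -0.42 ± 0.26 in Pole4-/- against Pole4+/+ cells and the other 8 genes lay between -0.28 and 0.02; none was called by edgeR, DESeq2 or voom, against 0.00637%, 0.274% and 1.58% of all genes, and none had an unadjusted p under 0.05 in edgeR, against 5.51%. The summed muscle markers were higher without overlap in Pole4-/- than in Pole4+/+ cells both without Trp53, at 52.9–67.4 against 42.5–50.4 CPM, and with a single allele, at 124.9–203 against 58.5–80.5 CPM. Their part was not tested.

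The order of the genotypes was nearly the same for the 6 variable genes. Pole4-/- Trp53+/+ cells were lowest and Pole4-/- Trp53+/- cells came next. Pole4+/+ cells followed with Trp53+/+, Trp53+/- and Trp53-/- in that order, and Pole4-/- Trp53-/- cells were highest. This held for Orc1, Orc2, Cdc6, Cdt1 and Gmnn, and for Orc5 among the flat genes. Orc6 had the 2 genotypes Pole4+/+ Trp53+/+ and Pole4+/+ Trp53+/- in the opposite order. Of the 5 neighbouring pairs in this order, 1 did not overlap for each of the 6 genes, which was Pole4-/- Trp53+/+ against Pole4-/- Trp53+/-. The other neighbours did not differ beyond the spread of their libraries. Under scaling by library totals the 2 highest genotypes changed places for all 6 genes. Without Pole4+/+ Trp53-/- library 1 they did so for all of these except Orc2. For Orc3 the order ran from Pole4-/- Trp53-/- at 30.02 ± 1.19 CPM to Pole4+/+ Trp53+/- at 34.0 ± 2.31 CPM, and all neighbours overlapped. Orc5 ran from 9.998 ± 0.661 to 13.2 ± 0.744 CPM, also with overlap between all neighbours. For Orc4 only Pole4-/- Trp53-/- cells, at 51.8 ± 4.32 CPM, stood above their neighbour, Pole4+/+ Trp53+/+ at 45.2 ± 0.713 CPM.

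Ratios within a library do not depend on how libraries are scaled. Their genotype means showed how far transcripts kept step between genotypes, and single libraries could spread more widely than these means. The ratio of Cdt1 to its inhibitor Gmnn, in CPM per kb, was 0.711 ± 0.151 over all 18 libraries, and genotype means ran from 0.642 to 0.785. The lowest and the highest single value, 0.438 and 1.01, were both in Pole4-/- Trp53+/+ cells. The ratio of Cdc6 to Cdt1 was 0.552 ± 0.0709, with genotype means between 0.508 and 0.620. By contrast, the ratio of Orc1 to Orc4 was 0.258 ± 0.0221 in Pole4-/- Trp53+/+ cells, 0.417 ± 0.0764 in Pole4-/- Trp53+/- and 0.683 ± 0.0305 in Pole4-/- Trp53-/- cells, and the 3 genotypes did not overlap. It was 0.424 ± 0.0780 in Pole4+/+ Trp53+/+ and 0.652 ± 0.221 in Pole4+/+ Trp53-/- cells, the latter between 0.429 in library 1 and 0.870 in library 3. The ratio of Orc3 to Orc4 went the other way, from 0.998 ± 0.0305 in Pole4-/- Trp53+/+ to 0.714 ± 0.0804 in Pole4-/- Trp53-/- cells. Orc1 to Orc2 also went up in Pole4-/- cells, from 0.233 ± 0.0215 with Trp53+/+ to 0.317 ± 0.0184 with Trp53-/-, without overlap. Genotype means of Orc6 to Orc2 ran from 0.956 in Pole4+/+ Trp53+/- to 1.304 in Pole4+/+ Trp53-/- cells, where library 3 was at 1.62. These are transcript ratios and say nothing of the proteins, most of which are turned over during the cell cycle.

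**Figure D3:**
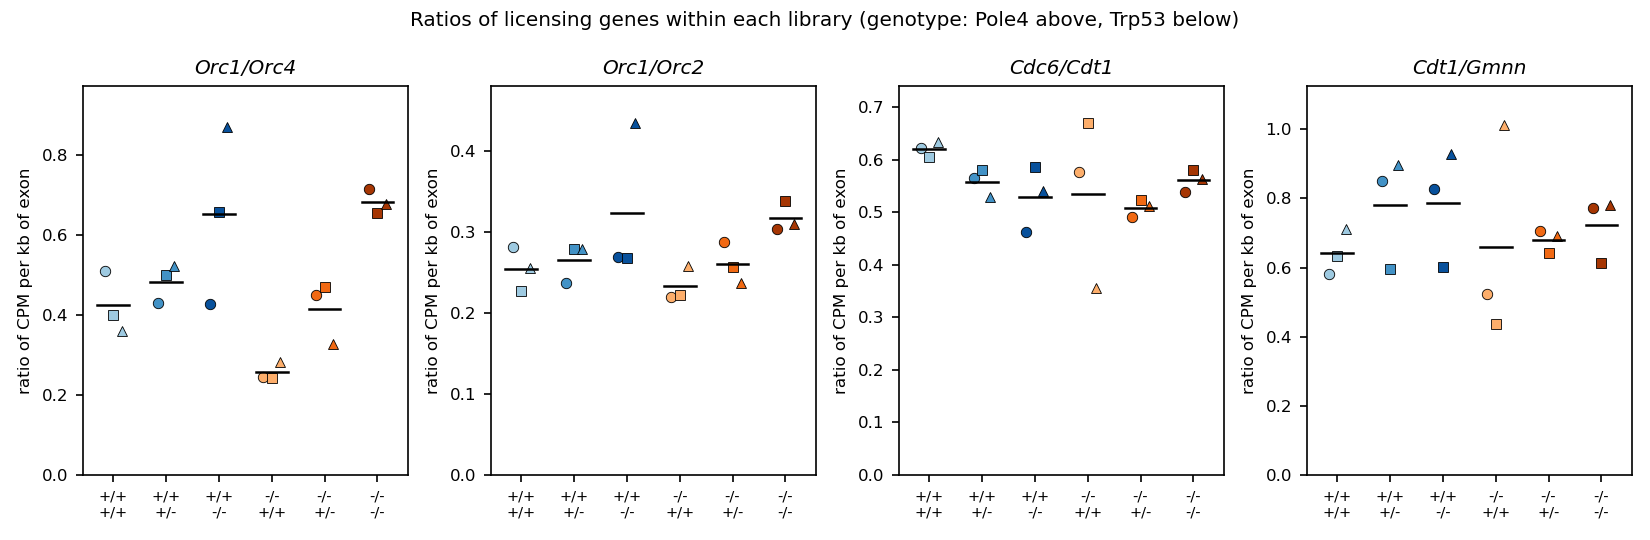
Ratio of 2 licensing genes in CPM per kb of exon (vertical axis, from 0) in each library of the 6 genotypes (Pole4 alleles above, Trp53 alleles below); circles, squares and triangles are libraries 1, 2 and 3 and bars are means. Orc1 to Orc4 goes from 0.258 in Pole4-/- Trp53+/+ to 0.683 in Pole4-/- Trp53-/- cells, while the genotype means of Cdt1 to Gmnn stay between 0.642 and 0.785.

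The other genes of the licensing pathway were listed by role: the helicase Mcm2 to Mcm7, the partners Lrwd1, Kat7, Kmt5a and Mcmbp, the ligase genes that destroy CDT1, and the genes that turn over CDC6 and geminin. Of 29 symbols 26 were tested, and the geminin relatives Gmnc and Mcidas were not, having too few reads. After loss of Trp53 in Pole4-/- cells 21 of the 26 rose and 0 fell, with a median log2 fold change of 1.07. Of all genes 42.6% were called in either direction and 21.8% were called higher. All 6 helicase genes rose, from 1.48 (Mcm4) to 1.97 (Mcm5). All 4 partners rose, with Kmt5a, a histone H4 methyltransferase, at 1.14 and Lrwd1, which stabilises ORC on chromatin, at 0.65.

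Of the 10 tested genes of CDT1 destruction, 5 rose and 0 fell, against 42.6% of all genes called in either direction and 21.8% called higher. These were Dtl, the adaptor that recognises CDT1 on PCNA (1.52), Pcna (1.43), the F-box gene Skp2 (1.27), Cul4b (0.53) and Cul1 (0.45). Ddb1 (0.04), Cul4a (0.07), Fbxo31, Rbx1 and Skp1a, most of them shared subunits of these ligases, did not pass the test. All 6 genes of CDC6 and geminin turnover rose, led by Fbxo5, an inhibitor of the anaphase-promoting complex, at 2.001, whereas Fzr1, the activator of that complex in G1, changed by 0.41.

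In Pole4+/+ cells 3 of the 26 rose after loss of Trp53 and 0 fell, against 4.6% of all genes: Dtl by 0.77, Skp2 by 0.52 and Fzr1 by 0.38. Without Pole4+/+ Trp53-/- library 1 the count was 19, against 16.9% of all genes, and the median log2 fold change of the list went from 0.38 to 0.53. It was 0 without library 3 of that genotype (4.02% of all genes), Pole4+/+ Trp53+/+ library 2 (2.5%) or Pole4+/+ Trp53+/+ library 3 (2.01%). It was also 0 with library totals (1.22%) and with only the libraries compared (0.616%), 8 with DESeq2 (8.35%) and 18 with voom (18.9%). In Pole4-/- against Pole4+/+ cells with intact Trp53, 11 of the 26 fell and 0 rose, against 3.98% of all genes: the 6 helicase genes, by between 0.80 (Mcm4) and 1.07 (Mcm5) on the log2 scale, Kat7, Skp2, Ccnf, Cdc20 and Fbxo5. The count was 0 with Xist as a covariate (0.0191% of all genes) and when any of the 6 libraries other than Pole4+/+ Trp53+/+ library 3 was left out (0.0493% to 0.874%), and 13 without that library (4.93%). It was 15 with DESeq2 (10.3%), 19 with library totals (14.3%) and 20 with voom (33.5%), while the list's median log2 fold change stayed between -0.83 and -0.49. With a single lost Trp53 allele in Pole4-/- cells 7 rose, the 6 helicase genes and Fbxo5, against 5.12% of all genes. The count was 0 with Xist as a covariate (0.643% of all genes), without Pole4-/- Trp53+/- library 2 (0.105%) or without any 1 of the Pole4-/- Trp53+/+ libraries (0.204% to 1.5%). It was 16 with DESeq2 (11%), 17 with library totals (13.8%) and 18 with voom (24.6%). The helicase genes thus passed tests in which Cdt1 and Orc1 did not, at log2 fold changes of like size. Between Pole4-/- and Pole4+/+ cells with intact Trp53, Mcm2 fell by 0.98 and Cdt1 was at -0.91, and the difference between these genes was not tested. For the second lost allele in Pole4-/- cells 17 of the 26 rose and 0 fell (median 0.58), against 12.5% of all genes. Scaling by library totals ended the calls of the licensing genes there.

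**Figure D4:**
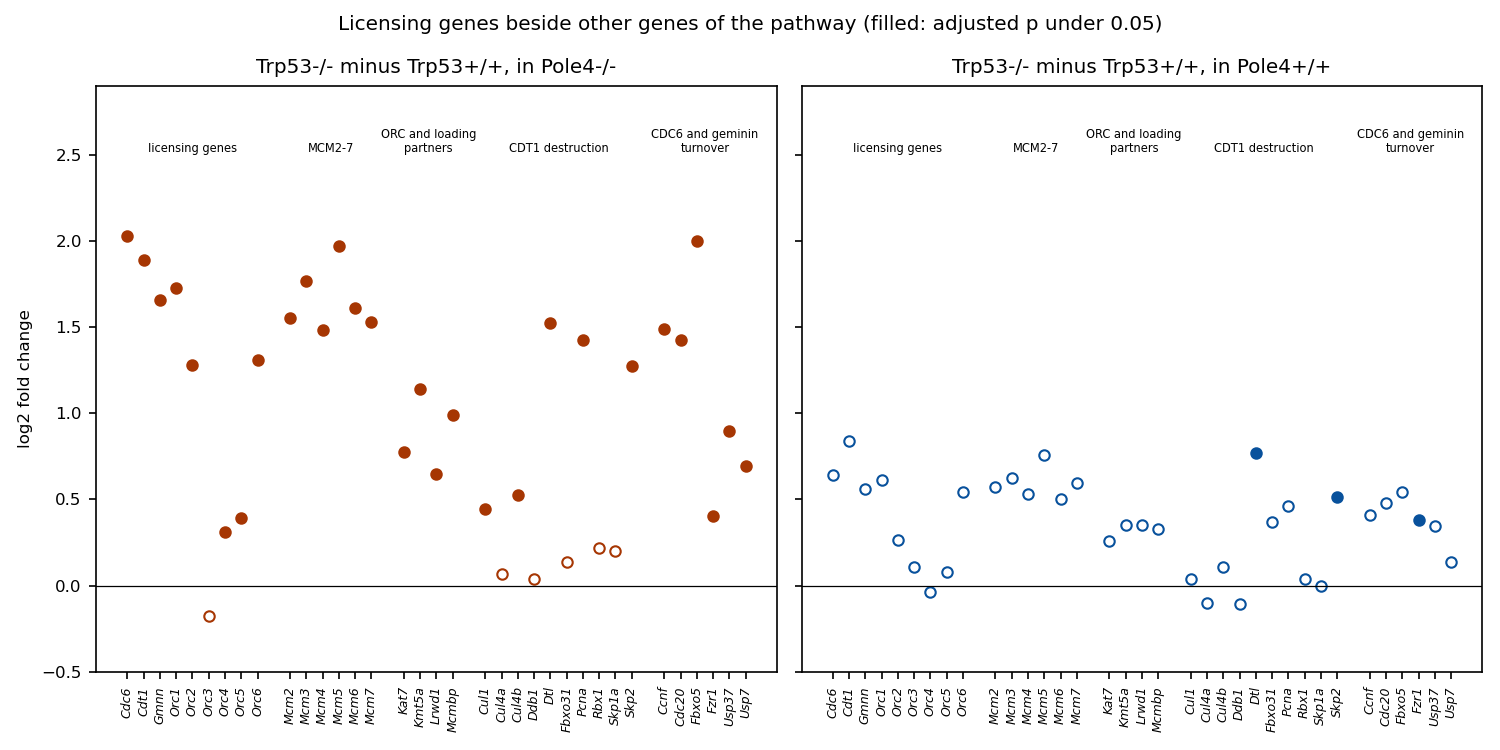
Log2 fold change (vertical axis) after loss of Trp53 in Pole4-/- cells (left) and Pole4+/+ cells (right) for the 9 licensing genes and 26 other pathway genes, grouped by role; filled points passed the edgeR test. On the left 8 of 9 licensing genes and 21 of 26 others are filled, and on the right none of the 9 and 3 of the 26.

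Proliferation markers moved with the licensing genes. Of 10 such markers (Mki67, Top2a, Cdk1, Ccnb1, Aurkb, Plk1, Bub1, Birc5, Kif11 and Tpx2), 10 rose after loss of Trp53 in Pole4-/- cells (median log2 fold change 1.68), 6 rose there with a single lost Trp53 allele (0.74), 3 rose in Pole4+/+ cells (0.59), and 9 fell in Pole4-/- against Pole4+/+ cells with intact Trp53 (-0.85). Of all genes 42.6%, 5.12%, 4.6% and 3.98% were called in either direction in these 4 comparisons. Between Pole4-/- Trp53-/- and Pole4-/- Trp53+/- cells all 10 markers rose as well (0.99), against 12.5% of all genes. In that comparison scaling by library totals ended the calls of the licensing genes. In Pole4+/+ cells the count was 10 (0.78) without Pole4+/+ Trp53-/- library 1, against 16.9% of all genes, and 0 to 1 without any 1 of the other libraries compared, against 2.01% to 4.02%. There it was 0 with library totals (1.22%) and with only the libraries compared (0.616%), 7 with DESeq2 (8.35%) and 10 with voom (18.9%). For loss of Pole4 it was 0 with Xist as a covariate, against 0.0191% of all genes, and 0 to 2 without any 1 library other than Pole4+/+ Trp53+/+ library 3, against 0.0493% to 0.874%. For a single lost allele in Pole4-/- cells it was 0 with Xist as a covariate (0.643% of all genes) and without Pole4-/- Trp53+/- library 2 (0.105%), 0 to 1 without any 1 of the Pole4-/- Trp53+/+ libraries (0.204% to 1.5%), and 10 with DESeq2 (11%), voom (24.6%) and library totals (13.8%). The mean log2 CPM of the 6 variable genes was 3.02 to 3.25 in Pole4-/- Trp53+/+ libraries and 4.62 to 4.95 in Pole4-/- Trp53-/- libraries, and that of the markers 5.34 to 5.39 and 6.95 to 7.22. In Pole4+/+ Trp53-/- cells library 1 was low in both, at 3.82 and 6.27, against 4.75 and 6.94 in library 2 and 4.95 and 7.13 in library 3. The part of proliferation in the levels of the licensing genes was not tested.

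**Figure D5:**
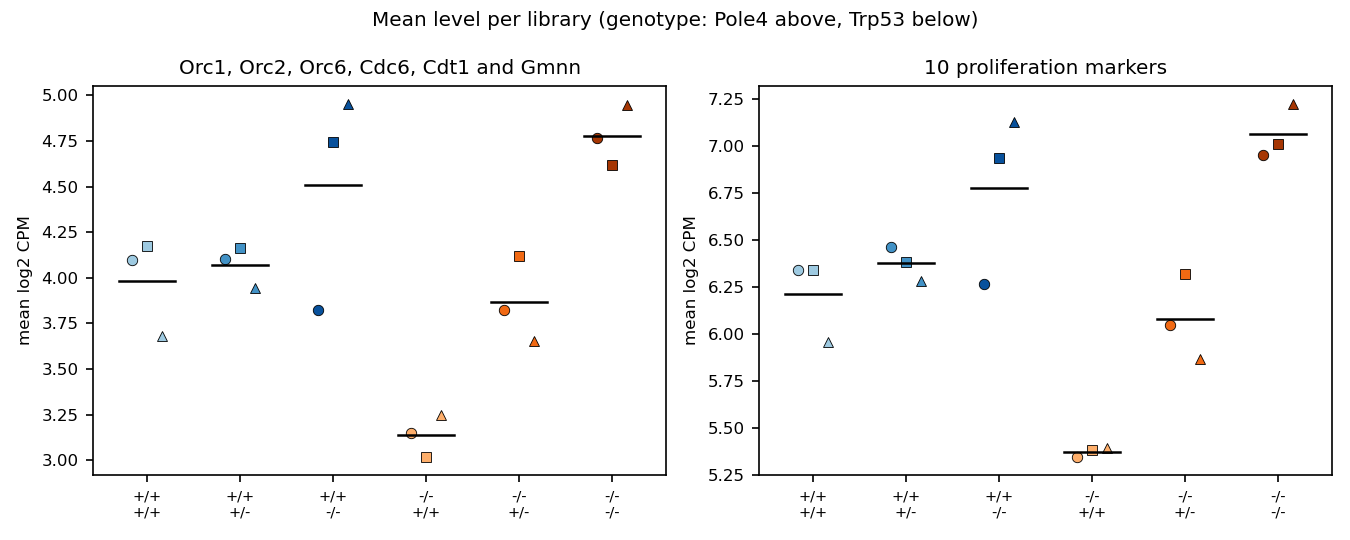
Mean log2 CPM (vertical axis, not starting at 0) per library of the 6 variable licensing genes (left) and of 10 proliferation markers (right) in the 6 genotypes; circles, squares and triangles are libraries 1, 2 and 3 and bars are means of 3. In both panels Pole4-/- Trp53+/+ libraries are the lowest, and Pole4+/+ Trp53-/- library 1 lies under the other two of its group.

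To see which genes each member resembled, profiles over the 18 libraries were centred and compared by the root mean square difference of log2 CPM. The nearest genes to Cdc6 were Exo1 (0.0959), an exonuclease of mismatch repair, Mcm5 (0.111) and Foxm1 (0.120). For Cdt1 they were Aurka (0.171), Chaf1b (0.174), a chromatin assembly subunit, and Pole (0.177), the catalytic subunit of polymerase epsilon. For Orc1 they were Ticrr (0.149), an origin firing factor, Cip2a (0.151) and Aurka (0.153), and for Gmnn Dkc1 (0.120), Pclaf (0.133) and Lyar (0.135). Orc2 was nearest to Set (0.0746), Naa50 and Rbbp8, and Orc6 to Haus6 (0.0941), Dis3 and Rangap1. The flat genes were nearest to other genes of little variation, Orc3 to Zkscan1, Orc4 to Eif5b and Orc5 to Ppp4r3b.

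Between members, the closest profiles were those of Orc2 and Orc6 (0.181), Orc4 and Orc5 (0.188) and Cdc6 and Cdt1 (0.196), and the farthest were Orc3 and Cdc6 (0.759). Cdt1 and Gmnn were farther apart (0.299) than Orc1 and Orc2 (0.228). No member was among the 3 nearest genes of another. The likeness rests on 18 libraries that share scaling and depth, and it is a description.

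Single reads can belong to more than 1 gene at some of these loci. Exons of Orc1 (chr4:108579423-108614833) share 376 bases with the opposite gene Gm12743, those of Orc2 (chr1:58462771-58505109) 1150 bases with Nif3l1, and those of Orc4 (chr2:48902824-48950277) 446 bases with Acvr2a and 136 with Mbd5, in GENCODE's annotation of GRCm38. Orc6 (chr8:85299632-85308278) shares 171 bases with Vps35, whose median count of 4430 was far above any Orc6 count, and Orc5 (chr5:22486485-22550429) 90 bases with the pseudogene Gm15421 on its own strand. The kits are not stated to keep the strand, so reads in the shared bases cannot be assigned with certainty. Orc3 (chr4:34570796-34614944), Cdc6 (chr11:98907801-98923940), Cdt1 (chr8:122568015-122573554) and Gmnn (chr13:24751845-24761923) share no exonic base with another gene. Counts of the 9 genes were whole numbers in all 18 libraries and lay between 35 (Gmnn) and 1604 (Orc4).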

How the data were processed

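RNA of 18 primary MEF cultures was sequenced. Per the labels it was polyA RNA, made into cDNA with an Ovation kit and read on a HiSeq4000. Adapters and low-quality ends were removed by the authors (Trim Galore), and alignment to GRCm38 used STAR 2.5.2 with RSEM 1.3.0 for counting; versions are from the submitters' processing notes. The deposited values are RSEM's expected counts per gene, with no normalization; 6.14% were not whole (tolerance 1e-06). The counts were rounded, filtered (filterByExpr), scaled (TMM) and fitted in R 4.3.3 with edgeR 4.0.16, using robust quasi-likelihood, 1 mean per genotype, 15710 genes and 12 residual degrees of freedom, and adjusted over all genes tested at 0.05. The SE is the log2 fold change divided by the square root of F. Log2 CPM used a prior count of 2. The fit was tested on simulated data. Symbols, exon lengths and coordinates came from GENCODE M21 (GRCm38). Alternatives were DESeq2 1.42.0, voom (limma 3.58.1), other scaling, filters, covariates and samples. The values named are all 9 members, the genotype checks, the pathway list, and the 3 nearest profiles of each member. The members and lists were chosen with earlier results of these data known. Depth was 9535971 to 35319918 counts.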

Additional observations from a re-analysis of the deposited data

How the results depend on the processing

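Of the 9 genes, the number called after loss of Trp53 in Pole4-/- cells was 8 as reported, against 42.6% of all genes. It was 6 to 8 in the alternatives, against 19.3% to 52% of all genes. When single libraries were left out it was 7 to 8, against 31.5% to 37.3%. Between Pole4+/+ Trp53-/- and Trp53+/+ cells it was 1 with DESeq2 and 6 with voom. For a single lost Trp53 allele in Pole4-/- cells it was 4 with DESeq2, 6 with voom, with scaling by library totals and with only the libraries compared, and 2, against 12.4% of all genes, with ribosomal RNA as a covariate, an alternative chosen after seeing the data. For the second allele it was 7 with DESeq2, 8 with voom, 4 without a filter on low counts (against 4.41% of all genes), 6 with 5 other settings and 0 with library totals or the ribosomal RNA covariate. Between Pole4+/+ Trp53-/- and Trp53+/- cells it was 5 with voom. For loss of Pole4 with intact Trp53 it was 6 with DESeq2, voom and library totals, 5 with only the libraries compared or the ribosomal RNA covariate, 3 without a filter on low counts, 2 without ribosomal RNA genes and 0 with Xist as a covariate, against 2.78%, 4.99% and 0.0191% of all genes. For the interaction it was 3 with DESeq2 and 5 with voom. Leaving out single libraries gave 0 to 6 for loss of Trp53 in Pole4+/+ cells (2.01% to 16.9% of all genes). For Trp53-/- against Trp53+/- it gave 0 to 7 in Pole4-/- cells (4.03% to 11.1%) and 0 to 5 in Pole4+/+ cells (0.347% to 9.41%). It gave 0 to 4 for loss of Pole4 with intact Trp53 (0.0493% to 4.93%) and 0 to 7 for the interaction (0% to 20.1%). In the other comparisons the count was 0 throughout.

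Some log2 fold changes that did not pass the test changed sign, and none of them passed it after the change. Between Pole4+/+ Trp53-/- and Trp53+/+ cells Orc4 was at 0.043 with library totals, 0.049 with voom and 0.0042 with the ribosomal RNA covariate. Between Pole4-/- Trp53+/- and Trp53+/+ cells Orc3 was at 0.21 with library totals. Between Pole4+/+ Trp53+/- and Trp53+/+ cells Gmnn was at -0.026 with library totals, Orc1 at -0.14, Orc2 at -0.026 and Gmnn at -0.064 with voom, and Orc6 at 0.0046 with Xist. Between Pole4-/- Trp53-/- and Trp53+/- cells Orc4 was at -0.059 and Orc5 at -0.0058 with library totals. Between Pole4+/+ Trp53-/- and Trp53+/- cells Orc3 was at 0.00078 with DESeq2 and 0.092 with library totals, and Orc4 at -0.0031 and Orc5 at -0.027 with Xist. For loss of Pole4, Orc3 was at -0.18 in Trp53+/+ cells with library totals and Orc4 at -0.021 in Trp53+/- cells with Xist. In Trp53-/- cells library totals gave -0.13 for Orc1, -0.071 for Orc2, -0.17 for Orc4, -0.31 for Orc5, -0.32 for Orc6, -0.20 for Cdc6, -0.26 for Cdt1 and -0.16 for Gmnn. There voom gave -0.0605 for Orc6 and -0.071 for Gmnn, and the ribosomal RNA covariate -0.0066 for Orc1, -0.021 for Orc6 and -0.068 for Gmnn. With library totals the median of all genes was -0.44 there, -0.28 for loss of Pole4 with intact Trp53, 0.29 for a single lost allele and -0.33 for the second allele in Pole4-/- cells, against -0.02 to 0.01 as reported.

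Leaving out single libraries changed signs as well. Orc4 ran from -0.14 to 0.0605 between Pole4+/+ Trp53-/- and Trp53+/+ cells, and Orc5 from -0.0049 to 0.13 between Pole4-/- Trp53+/- and Trp53+/+ cells. Between Pole4+/+ Trp53+/- and Trp53+/+ cells the ranges were -0.021 to 0.30 for Cdc6, -0.21 to 0.19 for Gmnn, -0.0057 to 0.25 for Orc1, -0.052 to 0.11 for Orc2 and -0.0032 to 0.14 for Orc5. Between Pole4+/+ Trp53-/- and Trp53+/- cells they were -0.098 to 0.043 for Orc3, -0.043 to 0.16 for Orc4 and -0.065 to 0.063 for Orc5. For loss of Pole4 in Trp53+/- cells they were -0.26 to 0.043 for Gmnn, -0.027 to 0.082 for Orc4 and -0.17 to 0.036 for Orc6. In Trp53-/- cells they were -0.11 to 0.47 for Cdc6, -0.11 to 0.41 for Cdt1, -0.057 to 0.46 for Gmnn, -0.047 to 0.61 for Orc1 and -0.17 to 0.36 for Orc6. The cause was not tested.

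Whether the replicate numbers pair the libraries was not settled. Deviations of libraries with the same number correlated at -0.259 to 0.586 (median 0.098, 45 pairs), and 11 of 18 libraries correlated best with their own number. Those with different numbers correlated at -0.493 to 0.4 (median -0.06, 90 pairs). With the replicate block the counts of called members were 8, 6 and 1 in the comparisons with calls and 0 in the others, as without it. Of all genes 3.49% were then called for the interaction, against 0.331% without the block. Depth limits Gmnn most, with 35 counts in its lowest library.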
